A study of Mus musculus with 2 samples.

Results

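The genes described here belong to families of carriers that move amino acids and amines across cell membranes. They were read in the brown adipose tissue of mice with and without a Cre driven by the Ucp1 promoter. They were chosen by symbol: every gene of the families Slc1, Slc3, Slc6, Slc7, Slc36, Slc38 and Slc43 except Slc6a8. This gave 46 of the 16174 genes listed in at least 1 library, and the 32 of them at 0.5 FPKM or more in either library are described one by one. FPKM, fragments per kilobase of transcript scaled to library size, is a level per transcript length, so it can be compared between genes. The choice by letters also took 2 genes that are named for lying on the strand opposite a carrier and encode no carrier, Slc7a6os and Slc36a1os. It took Slc43a3 as well, which is known to carry purine nucleobases and not amino acids. A further 20 symbols of these families are listed in neither library.

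Gene expression was measured by RNA sequencing of polyadenylated RNA from the brown fat of female C57BL/6 mice at 45 weeks of age, fed chow for 45 weeks. The control library is labelled D3Bfl/fl and the knockout library D3Bfl/fl-UCP1-Cre+/-, so both groups carried the floxed allele and only the label of the knockout names a Cre. The name D3B is taken to stand for Dnmt3b, which encodes a DNA methyltransferase, and the Ucp1 promoter directs the Cre to brown adipocytes, while other cells of the tissue keep the allele. Each genotype had 1 library, on lane 2 for the control and lane 1 for the knockout, so genotype, Cre and lane cannot be told apart. The labels do not give the number of mice in a library.

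Amino acid carriers work alone or in pairs. Members of Slc1, Slc6, Slc36, Slc38 and Slc43 are single proteins that are driven by ions or protons or that exchange or release their substrates, whereas most of the Slc7 carriers are light chains that reach the membrane only when bound to a heavy chain of the Slc3 family. In brown fat such carriers supply glutamine, cystine and branched-chain amino acids for fuel, glutathione and protein synthesis, and Slc36a2 is known as a surface marker of brown adipocytes.

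The control library held 9666528 expected counts and the knockout library 10068359. With no replicates there is no spread between mice, no test between the genotypes and no p-value. The interval given after each ratio of knockout to control FPKM is a 95% counting interval (exact Clopper-Pearson) of the reads. It covers counting error only, and reads copied by PCR are not independent molecules. Dnmt3b itself stood at 0.39 FPKM in control and 0.18 FPKM in knockout tissue, on 15 and 7 expected counts, with a ratio of 0.462 (0.155 to 1.17) whose interval includes 1. The tissue's defining markers were present, with Ucp1 at 4987 and 4271 FPKM and Cidea at 2925 and 2390 FPKM in the control and knockout library.

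Of the 32 genes, 4 were counted as higher and 1 as lower in the knockout library. The higher genes were Slc6a13, Slc7a10, Slc43a3 and Slc7a11, and the lower one was Slc7a8. A gene was counted when its ratio of (FPKM + 1) was at least 1.5-fold in either direction and its counting interval excluded 1. By the same rule 4.18% of all 12869 genes at 0.5 FPKM or more were higher and 3.41% were lower, against 12.5% and 3.12% of the transporter genes. These 5 genes are a small number, and nothing particular to the families is drawn from the shares. At 2-fold on the same scale Slc6a13 and Slc7a10 remained and no gene was lower, with 0.824% and 0.614% of all genes past that limit. The median log2 ratio on the (FPKM + 1) scale was -0.06 for the 32 genes and -0.02 for all genes tested. Of the 32 genes, 14 were above 0 and 18 below, where 46.5% of all genes were above 0 and 53.1% below. The counting interval alone lay above 1 for 10 of the 32 genes and below 1 for 7, where 17.5% and 21.2% of all genes did so. Slc7a5, among the 10, passed the threshold through the knockout library alone, at 0.36 FPKM in control and 0.77 FPKM in knockout tissue. Slc38a3 and Slc6a9, among the 18 genes below 0, passed it through the control library alone. They stood at 0.64 and 0.74 FPKM in control and at 0.37 and 0.43 FPKM in knockout tissue.

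**Figure D1:**
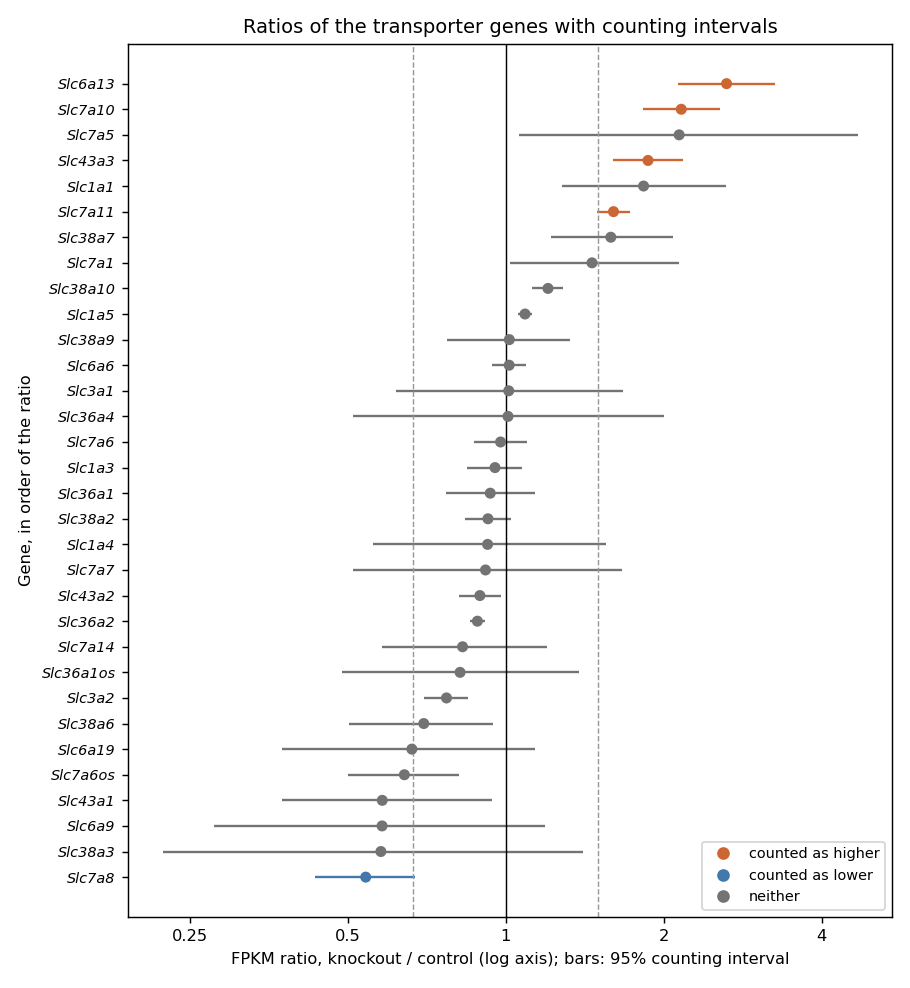
Ratio of knockout to control FPKM (log axis) for the 32 transporter genes, with 1 library per genotype; bars are 95% counting intervals, and dashed lines mark 1.5-fold of the plain ratio, while genes are coloured by the rule on (FPKM + 1). Slc6a13 has the highest ratio, 2.63, and Slc7a8 the lowest, 0.541.

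The promoters of 4 of the 5 counted genes are shown first, since Dnmt3b, the gene that the label D3B is taken to name, encodes an enzyme that methylates cytosines before guanines and since the element in Slc7a11 is the route by which amino acid shortage is known to reach that gene. Each is the window from 250 bases before to 50 bases after a RefSeq start site, the furthest upstream where a gene has several, in the build GRCm38.p6. DNA methylation was not measured here. In the Slc7a11 window on chr3:50443564-50443863 (minus strand), the capitals mark TGATGCAAA on either strand, letters of the composite element bound by ATF4 and its C/EBP partners. In the windows of Slc7a10 on chr7:35186135-35186434 (plus strand), Slc6a13 on chr6:121300038-121300337 (plus strand) and Slc7a8 on chr14:54781837-54782136 (minus strand), the capitals mark each CG.
Slc7a11: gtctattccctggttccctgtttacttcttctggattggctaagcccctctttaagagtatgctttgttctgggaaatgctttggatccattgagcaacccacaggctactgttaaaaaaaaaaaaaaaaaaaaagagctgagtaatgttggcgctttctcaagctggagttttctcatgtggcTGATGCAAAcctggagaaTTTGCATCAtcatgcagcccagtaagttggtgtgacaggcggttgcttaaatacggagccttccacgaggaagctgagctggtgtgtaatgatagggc
Slc7a10: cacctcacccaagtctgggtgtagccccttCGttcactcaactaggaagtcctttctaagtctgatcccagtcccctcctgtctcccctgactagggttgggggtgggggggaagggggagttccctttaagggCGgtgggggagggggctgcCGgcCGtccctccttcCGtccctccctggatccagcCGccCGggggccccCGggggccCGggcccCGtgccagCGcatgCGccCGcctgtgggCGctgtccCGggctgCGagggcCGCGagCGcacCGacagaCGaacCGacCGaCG
Slc6a13: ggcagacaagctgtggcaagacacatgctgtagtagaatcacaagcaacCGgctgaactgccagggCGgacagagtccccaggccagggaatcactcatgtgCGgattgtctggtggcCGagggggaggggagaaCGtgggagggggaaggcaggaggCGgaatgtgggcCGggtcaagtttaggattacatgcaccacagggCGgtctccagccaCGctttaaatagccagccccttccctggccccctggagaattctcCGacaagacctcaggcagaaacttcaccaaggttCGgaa
Slc7a8: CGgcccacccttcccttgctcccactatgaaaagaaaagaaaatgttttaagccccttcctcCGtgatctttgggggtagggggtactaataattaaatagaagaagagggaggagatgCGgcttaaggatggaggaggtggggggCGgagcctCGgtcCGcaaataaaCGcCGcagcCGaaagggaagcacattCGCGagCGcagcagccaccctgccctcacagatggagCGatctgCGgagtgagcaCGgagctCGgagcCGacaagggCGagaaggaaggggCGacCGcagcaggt

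The Slc7a11 window held the 9 letters once on each strand, with 57 and 39 bases between a match and the start site and 9 bases between the matches, so that the pair reads as an inverted repeat. Over the upstream windows of 27025 genes, 0.266% held TGATGCAAA on either strand and 0.0074% held it 2 times. Of the 26 described genes with a window in the RefSeq table, Slc7a11 was the one with this match. The looser TGATGNAA, searched in the same way and overlapping the first motif, was in 4.06% of all windows and in 3 of the 26. It was found 2 times in Slc7a11, 2 times in Slc7a7 and once in Slc1a4, whose ratios were 1.60, 0.915 and 0.923. The letters TGACNNNGC, a core of the antioxidant response element, were searched on both strands as well and were found in 12.4% of all windows and in 7 of the 26. They were not in this Slc7a11 window. A match is a description of the letters and shows no binding.

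The number of CG in these windows differed among the counted genes. Slc7a10 had 24, Slc6a13 had 11 and Slc7a11 had 4, all higher in the knockout library, and Slc7a8, the lower gene, had 20. Slc6a13 has 3 windows, and its count is for the one furthest upstream, while the other named genes have 1 each. The median over the 27025 genes was 7, with quartiles of 3 and 20, and the median over the 26 described genes was 17.5. Genes with many and with few CG were thus both among the higher ones. Slc1a5, Slc36a2, Slc38a3, Slc43a3, Slc6a6 and Slc7a5 were not matched.

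The heavy chain Slc3a2, known as CD98, is the partner that carries the light chains to the cell surface. It stood at 40.1 FPKM in control and 30.9 FPKM in knockout tissue, with a ratio of 0.771 (0.699 to 0.845). The interval lay below 1, but the difference stayed inside 1.5-fold, and part of the reads of Slc3a2 were divided with other genes by the authors' estimation. Slc3a1, the heavy chain of the kidney and gut cystine carrier, had 1.56 and 1.58 FPKM, which is a ratio of 1.01 (0.618 to 1.67). Slc7a9, the light chain that pairs with Slc3a1 in those organs, is listed in neither library.

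The light chains that pair with Slc3a2 went in both directions. Slc7a10 carries small neutral amino acids, D-serine among them, and is known as a surface marker of white adipocytes. It stood at 10.9 FPKM in control and 23.5 FPKM in knockout tissue, on 202 and 454 counts, with a ratio of 2.16 (1.82 to 2.56). Slc7a11 exchanges cystine for glutamate and so feeds glutathione synthesis. It stood at 14.0 FPKM in control and 22.5 FPKM in knockout tissue, on 1249 and 2085 counts, with a ratio of 1.60 (1.49 to 1.72). Its log2 ratio of 0.64 lay just past the 1.5-fold limit, and with the trend of the ratio with transcript length and level removed it was 0.58, inside the limit. Slc7a8, a carrier of large and small neutral amino acids, was the lower one, at 5.99 FPKM in control and 3.24 FPKM in knockout tissue. Its ratio was 0.541 (0.432 to 0.671), on 233 and 131 counts.

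The other light chains differed less or were too low to be counted. Slc7a6, which exchanges cationic for neutral amino acids, had 16.6 and 16.2 FPKM, which is a ratio of 0.977 (0.870 to 1.09). Its relative Slc7a7 had 1.29 and 1.18 FPKM, which is a ratio of 0.915 (0.511 to 1.66). Neither interval excluded 1. Slc7a5, the main leucine carrier of growing cells, was rare in this tissue, at 0.36 FPKM in control and 0.77 FPKM in knockout tissue. Its ratio of 2.14 (1.06 to 4.68) rested on 12 and 27 counts, and on the (FPKM + 1) scale it did not reach 1.5-fold.

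Set against the heavy chain, the light chains stood at a higher summed level per Slc3a2 in the knockout library. Their summed level was 49.2 FPKM in control and 67.5 FPKM in knockout tissue, which is 1.23 and 2.18 times the level of Slc3a2. Without Slc7a10 the sums were 1.42 times the heavy chain in the knockout and 0.954 times in the control library. For the 4 light chains other than Slc7a10 and Slc7a11 they were 0.693 and 0.605 times. The sum of these 4 was itself lower in the knockout library, 21.4 FPKM against 24.3 FPKM in the control, a ratio of 0.883, and so was Slc3a2. The make-up of the light chains differed as well. In the control library Slc7a6 took the largest share, 33.8% of the light chain FPKM, followed by Slc7a11 with 28.5% and Slc7a10 with 22.2%. In the knockout library Slc7a10 took 34.9%, Slc7a11 33.3% and Slc7a6 24.1%, and the share of Slc7a8 was 4.80% against 12.2% in the control.

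**Figure D2:**
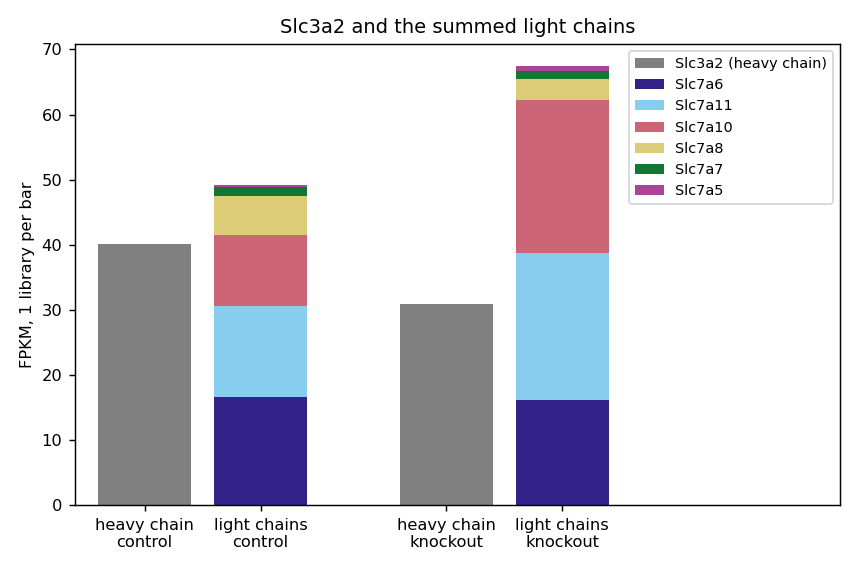
FPKM of the heavy chain Slc3a2 and of its 6 light chains, stacked, in the control and the knockout library (1 library per bar, so no error bars). The light chain stack is 49.2 FPKM in control and 67.5 FPKM in knockout tissue, while Slc3a2 is 40.1 and 30.9 FPKM.

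The Slc7 members that work without a heavy chain carry cationic amino acids such as arginine. Slc7a1, the widely expressed arginine carrier, stood at 0.74 FPKM in control and 1.08 FPKM in knockout tissue, with a ratio of 1.46 (1.02 to 2.13). Slc7a14, a relative of this group, had 0.81 and 0.67 FPKM, which is a ratio of 0.827 (0.581 to 1.20), with shared reads. Both were low, and neither was counted.

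In the Slc6 family, sodium- and chloride-driven carriers of amines and amino acids, the gene with the highest ratio of all 32 was found. Slc6a13 takes up GABA and taurine. It stood at 6.0 FPKM in control and 15.8 FPKM in knockout tissue, on 122 and 334 counts, with a ratio of 2.63 (2.13 to 3.26). Slc6a6, the taurine carrier and the most abundant Slc6 member in both libraries, had 23.2 and 23.5 FPKM which is a ratio of 1.01 (0.941 to 1.09). Slc6a9, which takes up glycine, had 0.74 and 0.43 FPKM, which is a ratio of 0.581 (0.278 to 1.19). Slc6a19, a neutral amino acid carrier of gut and kidney, had 1.51 and 1.0 FPKM, which is a ratio of 0.662 (0.375 to 1.14). The intervals of these 3 genes included 1. The monoamine carriers Slc6a2, for noradrenaline, and Slc6a4, for serotonin, had at most 2 counts in a library, and Slc6a3, for dopamine, is listed in neither.

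The Slc43 family was split. Slc43a3, which is known to carry purine nucleobases and not amino acids, stood at 10.2 FPKM in control and 19.0 FPKM in knockout tissue, on 252 and 489 counts. Its ratio was 1.87 (1.60 to 2.18). The leucine and phenylalanine carriers of the family pointed the other way. Slc43a1 had 2.27 and 1.32 FPKM, which is a ratio of 0.581 (0.375 to 0.941) on 53 and 33 counts, and Slc43a2 at 14.4 and 12.9 FPKM, a ratio of 0.892 (0.815 to 0.980). Both intervals lay below 1, and neither gene reached 1.5-fold on the (FPKM + 1) scale.

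The Slc36 and Slc1 families held the most abundant of the carriers. Slc36a2, the proton-coupled carrier of glycine, alanine and proline that marks brown adipocytes, stood at 315 FPKM in control and 278 FPKM in knockout tissue, with a ratio of 0.883 (0.853 to 0.912). Slc1a5, which exchanges glutamine and other neutral amino acids, had 298 and 324 FPKM, which is a ratio of 1.09 (1.05 to 1.12). Together they made up 71.1% of the summed FPKM of the 46 genes in the control and 68.5% in the knockout library, and their order differed between the libraries. Both were among the top 2.27% of listed genes by level in each library. Both intervals excluded 1, and both differences were far inside 1.5-fold. The FPKM of all genes summed to 606888 in the control and 571034 in the knockout library. With the libraries rescaled to the same total, the log2 ratio of Slc1a5 was 0.21 against 0.12 before. That of Slc36a2 was then -0.09 against -0.18, so both values depend on the scaling.

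The remaining Slc1 members carry glutamate or small neutral amino acids. Slc1a1, a glutamate and cysteine carrier, stood at 1.41 FPKM in control and 2.58 FPKM in knockout tissue, on 50 and 95 counts. Its ratio of 1.83 (1.28 to 2.62) had an interval above 1, and its log2 ratio of 0.57 lay just short of the 1.5-fold limit. Slc1a3, the more abundant glutamate carrier, had 13.6 and 12.9 FPKM, which is a ratio of 0.954 (0.845 to 1.08). Slc1a4, a carrier of alanine, serine and cysteine, had 0.91 and 0.84 FPKM, which is a ratio of 0.923 (0.559 to 1.55).

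Carriers of the lysosome, where amino acids are released to the cytosol and sensed, lie in the families Slc36 and Slc38. Slc38a7, which exports glutamine and asparagine from lysosomes, stood at 2.94 FPKM in control and 4.66 FPKM in knockout tissue, with a ratio of 1.58 (1.22 to 2.08). It was just short of the limit, with a log2 ratio of 0.52. Slc38a9, the lysosomal arginine sensor upstream of mTORC1, had 1.29 and 1.31 FPKM, which is a ratio of 1.02 (0.774 to 1.32). Slc36a1, a proton-coupled carrier of lysosomes, had 4.24 and 3.96 FPKM, which is a ratio of 0.934 (0.768 to 1.13). Slc36a4, of the same family, had 1.04 and 1.05 FPKM, which is a ratio of 1.01 (0.512 to 2.0).

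Among the other Slc38 members, Slc38a10 was the most abundant, at 36.1 FPKM in control and 43.4 FPKM in knockout tissue, a ratio of 1.20 (1.12 to 1.28). Slc38a2, the sodium-coupled carrier of alanine and glutamine that cells induce when amino acids are short, had 18.1 and 16.7 FPKM, which is a ratio of 0.925 (0.836 to 1.02). Slc38a6 had 3.54 and 2.47 FPKM, which is a ratio of 0.698 (0.503 to 0.945), with reads in part shared with other genes. Slc38a3, a glutamine carrier of liver and kidney, had 0.64 and 0.37 FPKM, which is a ratio of 0.578 (0.222 to 1.40) on 15 and 9 counts. None of these 4 genes was counted.

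The opposite-strand genes are given for completeness. Slc7a6os had 12.0 and 7.69 FPKM, which is a ratio of 0.641 (0.501 to 0.816), with a log2 ratio of -0.58 just inside the limit, while its neighbour Slc7a6 had the ratio of 0.977 given above. Slc36a1os had 2.09 and 1.71 FPKM, which is a ratio of 0.818 (0.488 to 1.38).

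**Figure D3:**
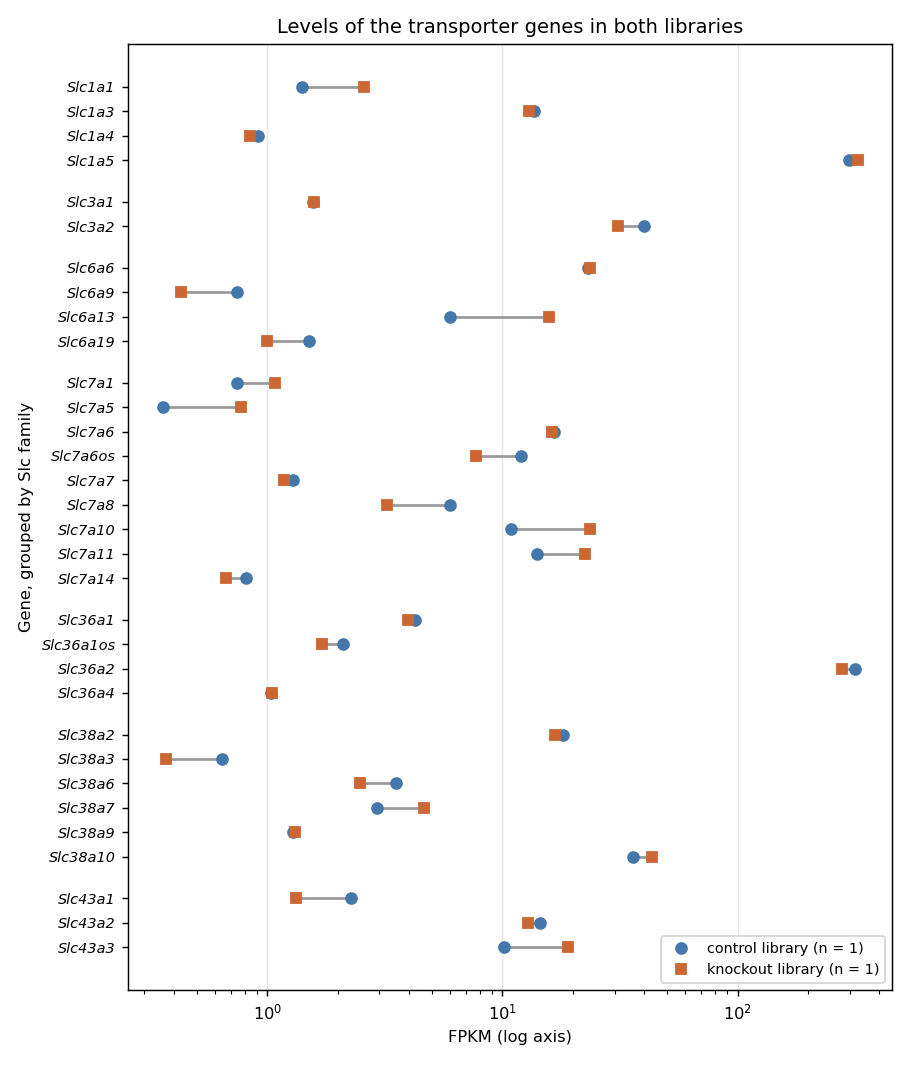
FPKM (log axis) of the 32 transporter genes in the control library (circles) and the knockout library (squares), grouped by family, with 1 library per genotype. Slc36a2 and Slc1a5 stand near 300 FPKM in both libraries, Slc6a13, Slc7a10, Slc7a11 and Slc43a3 lie to the right in the knockout library, and Slc7a8 to the left.

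The threshold of 0.5 FPKM left out 14 listed genes. The members just inside it were Slc38a3, Slc6a9 and Slc7a5, whose higher library stood at 0.64, 0.74 and 0.77 FPKM. Just outside were Slc38a1 at 0.38 FPKM and Slc6a7 and Slc6a12 at 0.39 FPKM, each in the knockout library. The others below it were Slc1a2, Slc38a4, Slc38a5, Slc38a11, Slc6a2, Slc6a4, Slc6a17, Slc6a18, Slc7a2, Slc7a3 and Slc7a4, none above 0.32 FPKM in a library.

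**Figure D4:**
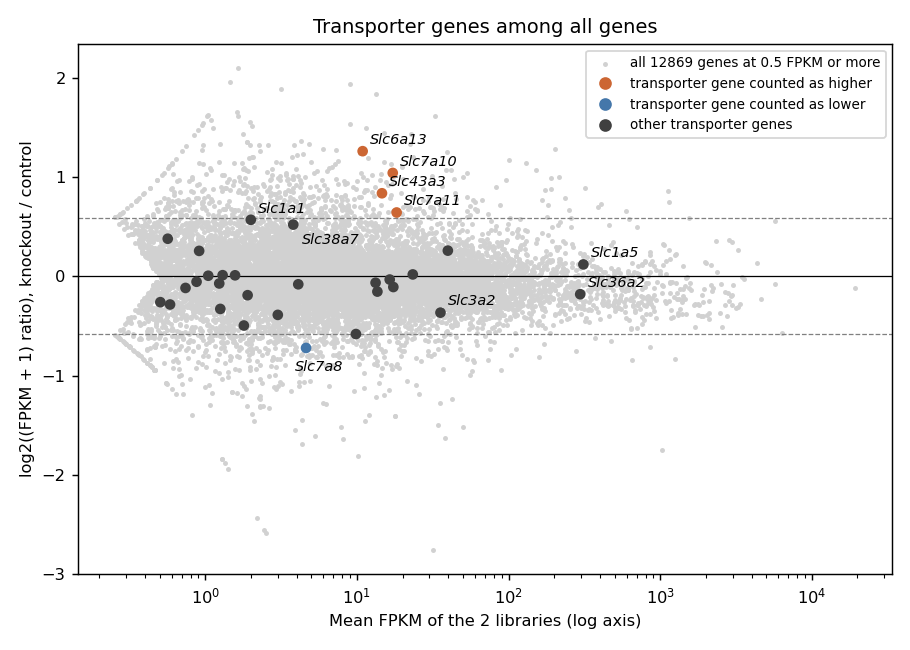
The log2 ratio of (FPKM + 1), knockout to control, against the mean FPKM of the 2 libraries (log axis) for all 12869 genes at 0.5 FPKM or more (grey) and the 32 transporter genes (large points), with dashed lines at 1.5-fold. The 4 higher genes lie between 0.64 and 1.26, Slc7a8 lies at -0.72, and the abundant Slc1a5 and Slc36a2 lie near 0.

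Of the counted genes, Slc7a10 is also known from a particular cell type, and bulk tissue does not tell fewer cells of a type from less RNA per cell. Slc7a10 marks white adipocytes, and of 7 markers of these cells 6 were listed and 5 were counted as higher. Trim14, among the 5, passed the threshold through the knockout library alone, at 0.45 and 1.22 FPKM on 6 and 17 counts. The summed level of the list was 398 FPKM in control and 724 FPKM in knockout tissue, with Hoxc9 at 0 in both. Of 8 fibroblast and preadipocyte markers 4 were higher, with sums of 337 and 525 FPKM, and of 8 macrophage markers 4 were higher, with sums of 397 and 589 FPKM. No marker of either list was at 0. Endothelial markers summed to 250 and 187 FPKM, with 3 of 8 lower, and brown adipocyte markers to 11308 and 9645 FPKM, with 2 of 9 lower and 1 higher. Sums follow their most abundant genes, such as Lyz2 at 194 and 309 FPKM among the macrophage markers. The summed FPKM of all genes had a ratio of 0.941. Among pericyte and smooth muscle markers 1 of 8 was higher. Schwann cell and nerve markers had 1 of 6 described lower, mast cell markers 1 of 4, and skeletal muscle markers 1 of 2 higher. No lymphocyte or red blood cell marker was counted. With the rule used for the carriers, 4.18% of all 12869 genes were higher and 3.41% lower. The part of these cells in the differences of the carriers was not tested.

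Genes that work with the carriers were read from lists of the pathway. Of 14 partners and regulators, 12 were at 0.5 FPKM or more, 1 was higher and 1 lower, beside 4.18% and 3.41% of all genes. Sgk2, a kinase of the family that regulates carriers at the membrane, stood at 8.43 FPKM in control and 2.09 FPKM in knockout tissue, with a ratio of 0.248 (0.180 to 0.337). Cd44, a surface glycoprotein known to stabilize the Slc7a11 protein, had 2.23 and 5.39 FPKM, which is a ratio of 2.42 (1.90 to 3.11). Arl6ip5, which binds the Slc1a1 protein, had 39.0 and 47.3 FPKM, which is a ratio of 1.21 (1.07 to 1.37). The median log2 ratio of the list was 0.02.

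The amino acid stress response is the pathway through which ATF4 acts on genes such as Slc7a11, Slc3a2 and Asns. Of its 18 genes at 0.5 FPKM or more none was counted as higher and 2 as lower, with a median log2 ratio of -0.08. The counting interval alone lay above 1 for 3 of them and below 1 for 8, which is 16.7% and 44.4%. Over all genes the interval lay above 1 for 17.5% and below 1 for 21.2%. The shares of all genes counted as higher and lower were 4.18% and 3.41%. The part of this response in the level of Slc7a11 was not tested. Trib3, a pseudokinase induced by ATF4, stood at 11.6 FPKM in control and 6.16 FPKM in knockout tissue, with a ratio of 0.532 (0.423 to 0.665). Ppp1r15a, which restores translation after stress, had 13.3 and 8.22 FPKM, which is a ratio of 0.617 (0.511 to 0.742), and Ppp1r15b had a ratio of 0.724 (0.677 to 0.773). The following genes were chosen after their values were seen. Ddit4, an inhibitor of mTORC1, had a ratio of 1.37 (1.19 to 1.57), Cebpg 1.11 (1.02 to 1.20) and Vldlr 1.08 (1.02 to 1.14). Atf4 itself had 114 and 91.1 FPKM, which is a ratio of 0.802 (0.749 to 0.858), and Asns had a ratio of 0.764 (0.676 to 0.860).

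Of the enzymes that use the transported amino acids none was counted, where 4.18% of all genes were higher and 3.41% lower. Among 12 genes of cystine and glutathione the median log2 ratio was 0.03, with Ggt5 at a ratio of 0.612 (0.435 to 0.850), Dpep1 at 1.33 (1.18 to 1.49) and Ggt6 at 0.478 (0.148 to 1.38). Ggt6 passed the threshold of 0.5 FPKM through the control library alone, at 0.69 and 0.33 FPKM on 12 and 6 counts. Among 18 enzymes of glutamine, glutamate, proline, arginine, asparagine and GABA the median was -0.11. There, Abat, which breaks down GABA, had a ratio of 1.79 (1.23 to 2.64) and Prodh, the first enzyme of proline breakdown, 0.722 (0.609 to 0.854). Among 19 taurine and amine enzymes the median was -0.09, with Csad, which makes hypotaurine, at 114 FPKM in control and 81.0 FPKM in knockout tissue, a ratio of 0.708 (0.665 to 0.752). Smox, which oxidizes spermine, had an FPKM ratio of 1.56 and Sat2 a ratio of 0.725 (0.476 to 1.10). The interval of Smox, 1.02 to 1.86, is that of its 79 and 113 counts, whose scaled ratio was below 1.56.

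The 34 genes of amino acid sensing by mTORC1 were all at 0.5 FPKM or more and none was counted. Their median log2 ratio was -0.01, and the members farthest from 0 were Bmt2, an S-adenosylmethionine sensor, with a ratio of 0.648 (0.479 to 0.873), Nprl3 with 0.764 (0.618 to 0.942) and Mios with 0.782 (0.636 to 0.962). Carriers of amino acids, amines, choline and peptides in other families had 18 genes at that level, with 3 higher, none lower and a median of 0.15, beside the 4.18% and 3.41% of all genes. The 3 were Slc15a5, which passed the threshold through the knockout library alone, with a ratio of 4.13 (1.77 to 11.1) at 0.30 and 1.24 FPKM, the choline carrier Slc5a7 with 3.04 (1.94 to 4.85) at 0.54 and 1.64 FPKM, and Slc22a4, the ergothioneine carrier, with 1.83 (1.29 to 2.61) at 2.43 and 4.45 FPKM.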

How the data were processed

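The authors deposited, for each library, an expected count, an FPKM, a transcript length and an Entrez identifier for every listed gene, per the file headers. An expected count, as deposited, divides reads shared by several genes and need not be whole. RSEM (version not stated) and the build mm9 come from the submitters' processing notes. The aligner and the treatment of strand are not given in the sources used here. Genes not listed in a library were set to 0. A gene has shared reads where its expected count is over 0.05 from a whole number. Symbols came from RefSeq (GRCm38.p6) by Entrez identifier, with 16134 of 16174 genes matched. As the builds differ, coordinates are printed for the RefSeq promoter windows only.

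With 1 library per genotype a rule of size replaced a test: at least 0.5 FPKM in either library, a ratio of at least 1.5-fold on the log2(FPKM + 1) scale and a 95% counting interval excluding 1. This scale understates the differences of low genes. Ratios in the text have no pseudocount. Intervals used expected counts rounded to whole numbers and library totals (scipy 1.17.1), so an interval need not be centred on the FPKM ratio it follows. A count of 0 allows 3 counts, or 0.310 CPM in the control and 0.298 CPM in the knockout library.

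The members and lists were chosen with earlier results of these data known. All 32 members at the threshold are named, and up to 3 genes per related list with the largest absolute log2 ratio; for 1 list, a gene this rule takes is not reported here. Promoters replaced planned protein sequences, which were not used here. Alternatives were pseudocounts, filters, a 2-fold limit, CPM, 3 rescalings, removal of the trend with length and level, and members left out.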

Additional observations from a re-analysis of the deposited data

How the results depend on the processing

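No paired analysis was possible because each genotype has 1 library and the result comes from no test. The 4 higher genes and the 1 lower gene were counted again with at least 1 FPKM in either library, with no filter on low values, with members with shared reads left out, and without Slc7a6os or without both opposite-strand genes, the last an alternative chosen after seeing the data. In these settings 3.33% to 4.35% of all genes were higher and 2.71% to 3.41% lower. With a pseudocount of 0.1, and with CPM in place of FPKM, 7 genes were higher and 3 lower. The shares over all genes were larger there too, 6.69% and 5.56% for the pseudocount and 6.22% and 5.06% for CPM, against 4.18% and 3.41%. The additions in both cases were Slc1a1, Slc38a7 and Slc7a5 among the higher and Slc43a1 and Slc7a6os among the lower. Of these, Slc7a5 passed the threshold of 0.5 FPKM through the knockout library alone. With a pseudocount of 5, 3 were higher, without Slc7a11, and 0 lower. The shares over all genes were smaller there too, 1.06% higher and 0.831% lower. With a mean of at least 5 FPKM 4 were higher and 0 lower, since Slc7a8 is below that mean, beside 2.93% and 2.54% of all genes. At 2-fold, 2 were higher and 0 lower, beside 0.824% and 0.614% of all genes. With the median of all genes set to 0, 5 were higher, Slc1a1 being added, beside 4.56% of all genes. With libraries rescaled to the same FPKM total, with or without the 20 most abundant genes, 6 were higher, Slc1a1 and Slc38a7 being added, beside 5.52% and 5.56% of all genes, and the median of the 32 genes was 0.005 and 0.006, above 0, beside 0.05 for all genes in both. With the length and level trend removed 3 were higher, without Slc7a11, beside 4.34% of all genes. In each of these 4 settings Slc7a8 was the 1 lower gene, beside 2.59% to 3.11% of all genes. The sign of Slc1a3, Slc36a4, Slc38a9, Slc3a1, Slc6a6 and Slc7a6, all with a ratio near 1, differed in 1 or 2 settings. Depth limits the genes under 1 FPKM, such as Slc7a5 with 12 and 27 counts.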

Other observations

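The carriers below 0.5 FPKM held a few unequal counts, named here after their values were seen. Slc38a1, a sodium-coupled glutamine carrier, had 2 counts in the control and 28 in the knockout library, at 0.03 and 0.38 FPKM, and its ratio of counts scaled to library size was 13.4 with a counting interval of 3.39 to 116. Slc6a7, a proline carrier of the brain, had 2 and 13 counts, which scaled to library size is a ratio of 6.24 (1.41 to 57.0). Slc7a4, a relative of the cationic carriers, had 10 counts in the control and 1 in the knockout library, with a scaled ratio of 0.096 (0.0022 to 0.675).

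Slc6a12, which takes up betaine and GABA, is the gene next to Slc6a13 on chromosome 6 in RefSeq order. It had no count in the control and 10 in the knockout library, at 0.39 FPKM. Against the 3 counts that a count of 0 allows in the control library, which are worth 0.122 FPKM, it was at least 3.2-fold higher, a value that leaves out the counting error of the 10. With that error the counting interval of the scaled ratio began at 2.15. On chromosome 2, Slc43a1 and Slc43a3, with 1 gene between them, had log2 ratios of opposite sign, -0.50 and 0.84. On chromosome 15 Slc38a1 and Slc38a2, with 3 genes between them, had log2 ratios of 0.42 and -0.11.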
